A study of Arabidopsis thaliana with 48 samples.

Results

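The comparison described here asks what glucose changed in the transcriptome of an energy-signalling mutant of Arabidopsis thaliana kept in light. Seedlings of the snrk1a1/a2 mutant, marked kd in the labels, were taken 4 d after germination in light, either with glucose or without it, and mRNA of whole seedlings was sequenced. Its members were picked by genotype, age, light and glucose label alone, which gave 6 of the 48 samples of the series, 3 with glucose and 3 without. Wild-type seedlings of the same age in light, 3 with glucose and 3 without, are set beside them where a difference between genotypes was tested. All 6 mutant samples carry the same mutant genotype, so glucose is what the labels change between them. The glucose samples belong to the second of the 2 title series of the study and the samples without glucose to the first, so a difference between title series and the effect of glucose cannot be told apart. The glucose dose, the onset of light and the way the mutant was made are not given in the sources used here. Nor is whether replicates were separate cultures. A p-value here therefore speaks of the spread among samples within a group, estimated over all groups of the series, and that spread may be technical.

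SnRK1 is a protein kinase that plant cells activate when sugar and energy run short. It switches on genes for breaking down amino acids, lipids and cell components, and restrains synthesis and growth. Its catalytic subunits are KIN10 and KIN11, which the mutant's label names as SNRK1A1 and SNRK1A2. Glucose acts in plants as a fuel, as a building block for starch and cell walls, and as a signal that represses starvation genes through several routes, one of them the inhibition of SnRK1 by sugar phosphates.

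The 6 libraries held between 8008188 and 16614513 counts when each gene is represented by its longest transcript model. The first principal component of the 6, with 65% of the variance, separated the libraries with glucose from those without. Library 1 without glucose stood apart from the others on the second component, which held 15.3%, and the change with glucose, its difference from wild type and the list counts were recomputed without it. Transcripts encoded in the mitochondrion took 0.177% to 1.13% of the counts without glucose and 0.144% to 1.09% with it, so they varied within both groups. Levels are given as CPM, the counts scaled to a common library total, for libraries 1, 2 and 3 in that order. Changes are log2 ratios of glucose over no glucose from the fit to all libraries (3 a group). Their standard errors were worked back from the log2 change and the F value of its test. The fit also applies a normalization factor per library (TMM), which the CPM lack. It was 0.824 to 0.874 in wild type without glucose, 1.02 to 1.03 in wild type with it and 0.994 to 1.08 in the mutant. Wild-type CPM pairs and sums therefore read higher with glucose, relative to without, than the log2 changes do.

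The targeted genes were read first. KIN11 (AT3G29160, TAIR10 chromosome 3, 11128625 to 11132065) stood at 40.1, 31.8 and 41.1 CPM without glucose and at 17.4, 16.8 and 16.7 CPM with it. It fell by 1.18 ± 0.18 on the log2 scale (adjusted p = 3.26e-06), more than in wild type, where the log2 change was -0.47 (interaction adjusted p = 0.0284). The interaction of KIN11 lost its call without any one of 5 libraries (adjusted p from 0.0528 to 0.0658), and after subtracting the difference between title series at 3 d in the dark (log2 -0.71 before and after, adjusted p = 0.186). KIN10 (AT3G01090, chromosome 3, 31181 to 34487) read 583, 122 and 154 CPM without glucose and 210.1, 123 and 127 CPM with it. Its log2 change of -0.90 ± 0.39 did not pass (adjusted p = 0.0645), and without library 1 of the seedlings without glucose, the library that stands apart, it was 0.09. Without library 2 or 3 of that group, or library 1 with glucose, it passed (adjusted p = 0.0161, 0.0215 and 0.0364), as it did with DESeq2 (adjusted p = 0.0451). A scaffold subunit of the kinase, KINB1 (AT5G21170, AKINBETA1), also fell, from 57.2, 41.4 and 34.1 to 26.2, 19.1 and 19.3 CPM. Of the 9 listed subunits and activating kinases, 2 were called lower and none higher, beside 23.2% lower and 19.8% higher among all tested genes. Counts over a whole transcript model do not show whether the protein is lost, so these values do not test the label.

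In light, glucose changed the level of 9709 of the 22586 tested genes in the mutant, or 43.0%, at an adjusted p under 0.05. Of these, 4470 were higher (19.8%) and 5239 lower (23.2%), and the median log2 change over all tested genes was -0.04. At least a 2-fold change was found for 1958 genes that were higher (8.67%) and 2395 that were lower (10.6%). The 3 libraries of one side lay wholly above or below those of the other for 10350 genes (45.8%). In wild type, glucose changed 8211 genes in light, or 36.4%, with 4084 higher and 4127 lower. The counts for each gene list below are read against these shares. Runs of the 3 d dark libraries are held in both title series, and subtracting the difference between those runs of the mutant from the change with glucose left 5606 genes called. Same-numbered runs differed by little more than sampling noise and may come from the same libraries, so they say little of cultures grown for one title series or the other. The subtraction took same-numbered runs as unpaired libraries, so it adds the spread among 6 more runs. Whether a call lost after it reflects that added spread was not tested.

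**Figure D1:**
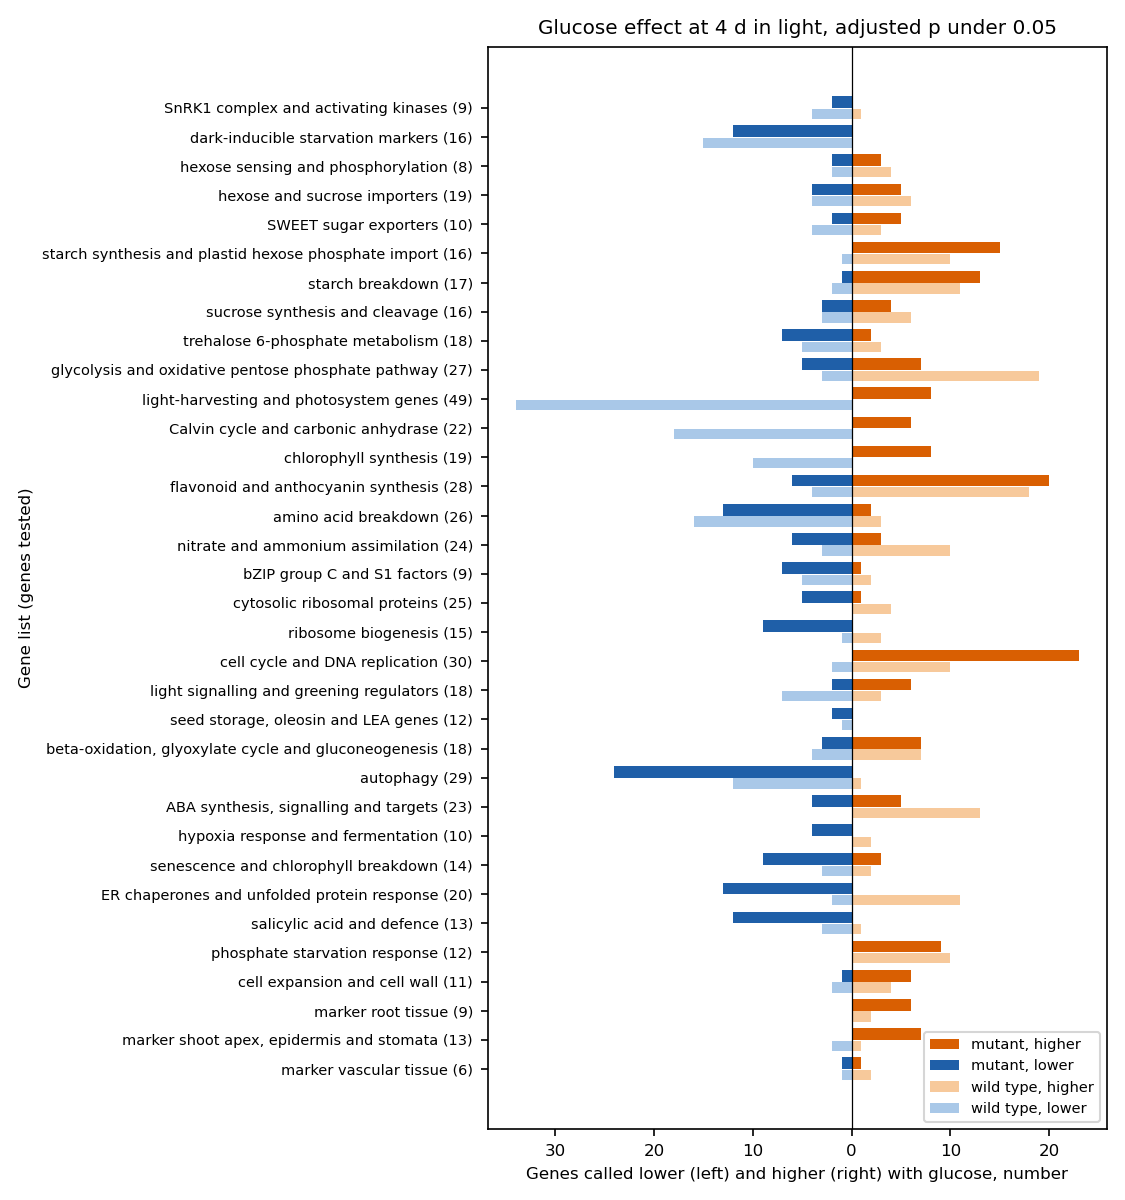
Number of tested genes of each list that were called higher (right, orange) or lower (left, blue) with glucose in the mutant in light at an adjusted p under 0.05; the pale bars on either side give the same counts in wild type. Phosphate starvation, starch, flavonoid and cell cycle genes lie to the right, while starvation markers, autophagy and salicylic acid genes lie to the left in the mutant, with 12 of 13 salicylic acid genes lower.

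The 12 largest falls were taken among genes with a mean log2 CPM of at least 2 over all 42 libraries of the fit. A falling gene can reach that level through its libraries without glucose or through groups outside this comparison. SUC7 (AT1G66570), annotated as a sucrose-proton symporter and one of several near-identical SUC copies whose reads may be split, went from 17.9, 36.1 and 31.9 to 0, 0.0869 and 0.0612 CPM. AIG1 (AT1G33960), a GTP-binding protein known from responses to avirulent bacteria, dropped from 128, 265 and 117 CPM to 1.86, 1.3 and 4.4 CPM, a log2 change of -6.07 ± 0.63 (adjusted p = 1.13e-08). NRT2.5 (AT1G12940), a high-affinity nitrate transporter of nitrogen-starved plants, read 5.12, 10.3 and 7.06 CPM without glucose and 0.0886, 0 and 0.122 CPM with it. Every library of these 3 genes without glucose lay above every library with it, as the naming rule requires. The alpha/beta-hydrolase AT5G24210 moved from 212, 302 and 219.7 to 3.81, 4.09 and 7.4 CPM, and the 2-oxoglutarate-dependent oxygenase AT2G38240 from 37.7, 70.7 and 116 to 1.77, 1.22 and 1.96 CPM. In wild type without glucose the last 2 averaged 9.5 and 1.01 CPM, near their level in the glucose-fed mutant. The pectinesterase PE11 (AT2G21610), the translational repressor family member PUM12 (AT5G56510), the basic helix-loop-helix gene AT1G10585, the subtilase AT5G58840, AT5G54560 of unknown function, the heavy metal transport family gene AT1G29100 and the zinc-binding ribosomal protein family gene AT3G61111 completed the 12 largest falls, with log2 changes from -6.63 for PUM12 to -5.34 for AT3G61111. The log2 change of PUM12 was -9.27 without library 3 with glucose and -5.82 without library 2 without glucose, and that of AT5G58840 was -4.96 without the latter. Leaving out library 3 with glucose also moved AIG1 to -6.78 and NRT2.5 to -7.18.

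Among the largest rises were genes of dehydration, lipid transfer and phosphate starvation. The same level filter applied to the 12 largest rises. A rising gene can reach that level through its libraries with glucose or through groups outside this comparison. The dehydrin AT4G38410, a protective protein of drying cells, stood at 1.75, 0.963 and 0.174 CPM without glucose and 172, 113 and 333 CPM with it, the largest of the named rises (log2 7.78 ± 0.79, adjusted p = 7.05e-09). LTP4 (AT5G59310) and its neighbour LTP3 (AT5G59320), lipid transfer proteins of the epidermis, rose from 2.5, 0 and 0.0871 to 52.4, 59.1 and 111 CPM and from 1.75, 1.14 and 1.05 to 30.8, 26.3 and 63.8 CPM. The 2 copies are similar, and reads could be split between them. KIN1 (AT5G15960), a cold- and dehydration-induced gene that is no kinase, went from 6.74, 1.38 and 0.871 to 67.7, 80.1 and 215 CPM. BAM5 (AT4G15210), an extraplastidic beta-amylase long used as a sugar-induced marker, was close to 0 without glucose (0.749, 0 and 0 CPM) and read 39.2, 17.3 and 34 CPM with it. The wild-type means of BAM5 were 0.156 CPM without and 0.602 CPM with glucose, but the difference between genotypes did not pass (interaction log2 5.65, adjusted p = 0.138). At nearly the same size it passed in a fit to the libraries compared alone (adjusted p = 0.0369), with DESeq2 (adjusted p = 0.00785) and without the 2 dark glucose libraries that lie with the other genotype (adjusted p = 0.0115). The lipid-transfer family member AT2G37870, AT1G23110, the embryo-specific-3 family gene AT5G62210 and AT5G20790 rose with log2 changes of 6.04, 6.43, 5.01 and 5.36. PS2, PEPC1 and MGD3 make up the remainder of the 12 and belong with the phosphate genes below. Without library 1 of the seedlings without glucose, the log2 changes became 11.63 for BAM5, 10.63 for LTP4, 7.41 for AT2G37870 and 6.62 for KIN1, and without library 3 of that group the change of AT5G62210 was 6.20.

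Starvation genes came down. Dark-inducible genes are the classical readout of SnRK1 activity, and of the 16 tested here, 12 were lower with glucose and none higher, with a median log2 change of -1.25 against -0.04 over all genes. DIN10 (AT5G20250), a raffinose synthase family member, read 564, 533 and 639.8 CPM without glucose and 173, 109.6 and 113 CPM with it, a fall of 2.17 ± 0.25 (log2, adjusted p = 4.54e-08). ASN1 (AT3G47340), the asparagine synthetase that stores nitrogen when carbon is short, went from 220.0, 408 and 237 to 74.3, 46.6 and 72.8 CPM; it was named after its values were seen. MIOX2 (AT2G19800), a myo-inositol oxygenase, fell from 288, 359.7 and 407 to 76.8, 59.5 and 98.2 CPM, and DIN9 (AT1G67070), a mannose-6-phosphate isomerase, from 11.2, 14 and 24.8 to 5.31, 5.39 and 6.3 CPM. For DIN10 the groups were far apart in both genotypes, but wild type fell further, from a mean of 1536 to 49.6 CPM (log2 -5.22, interaction adjusted p = 9.49e-08). In wild type 15 of the 16 genes were lower, with a median of -2.60, and for 10 of the 16 the interaction passed, each with the smaller fall in the mutant. DRM2 (AT2G33830), which did not pass in the mutant, read 1054, 157 and 183 CPM without glucose and 327, 158 and 174 CPM with it, and without library 1 of the untreated seedlings its log2 change was 0.31. It passed without library 2 or 3 of that group or library 1 with glucose (adjusted p = 0.0255, 0.0247 and 0.0425). The summed level of the 16 genes was 2322 to 3302 CPM without glucose and 774 to 1229 CPM with it in the mutant, against 4779 to 5352 and 689 to 760 CPM in wild type. When the difference between title series was subtracted, 9 of the 16 were called lower in the mutant.

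The bZIP factors of groups C and S1, which form the dimers that carry SnRK1 signals to such genes, moved in the same direction. Of 9 genes, 7 were lower and 1, BZIP44, was higher. When the difference between title series was subtracted, 5 were lower and none higher. BZIP9 (AT5G24800) fell from 142, 202 and 163 to 41, 29.6 and 56.4 CPM, BZIP53 (AT3G62420) from 177, 271 and 219.9 to 123, 76.8 and 122 CPM, and BZIP25 (AT3G54620) from 109, 112 and 94.6 to 48.4, 40.1 and 59.996 CPM. BZIP63 (AT5G28770), a direct phosphorylation target of SnRK1, showed a smaller fall in the mutant (35.8, 26.5 and 27.8 to 19.5, 15.4 and 20.5 CPM) than in wild type, where it went from 116 to 14.9 CPM on average (interaction adjusted p = 4.93e-09). BZIP10 was not called, at a log2 change of -0.14 ± 0.12.

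Genes for the breakdown of amino acids and of cell components fell with them. Of 26 amino acid breakdown genes, 13 were lower and 2 higher, against 16 lower and 3 higher in wild type. GDH2 (AT5G07440), a glutamate dehydrogenase that feeds carbon skeletons to respiration, stood at 593, 970.2 and 587 CPM without glucose and 221, 156 and 221 CPM with it (log2 -1.89 ± 0.20, adjusted p = 5.59e-09). THA1 (AT1G08630), a threonine aldolase, fell from 37.3, 90.6 and 31.2 to 11.2, 7.91 and 6.97 CPM. AT1G21400, a subunit of the branched-chain keto acid dehydrogenase, moved from 91.4, 148 and 84.9 to 39.8, 17 and 36.9 CPM, and ETFQO (AT2G43400), which passes their electrons to the respiratory chain, from 41.3, 41.2 and 44.9 to 19, 21 and 20.5 CPM. Both genes lay higher in wild type without glucose, at means of 259.6 and 74.9 CPM, and their falls there were larger (interaction adjusted p = 0.00122 and 0.000672). GDH1 and the methionine gamma-lyase MGL were not called, with log2 changes of -0.54 ± 0.23 and 0.34 ± 0.28. GDH1 passed without library 3 of the seedlings without glucose or library 1 with it (adjusted p = 0.0106 and 0.0291) and with DESeq2 (adjusted p = 0.0494). THA1 had a log2 change of -1.98 without library 2 of the seedlings without glucose, and 6 genes of the list were called lower and 1 higher when the difference between title series was subtracted.

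Autophagy, the delivery of cytoplasm to the vacuole for recycling, was among the most uniform lists. Of 29 genes, 24 were lower and none higher, with a median log2 change of -0.69. NBR1 (AT4G24690), the receptor that carries ubiquitinated cargo, read 798, 938 and 884 CPM without glucose and 279, 201 and 223 CPM with it, a fall of 1.93 ± 0.18 (log2, adjusted p = 1.31e-09). The groups did not overlap, and in wild type the means were 209.9 and 221 CPM, a change that did not pass (interaction adjusted p = 4.77e-06). Members of the ATG8 family, the ubiquitin-like proteins that coat the autophagosome, behaved differently from each other between genotypes. ATG8B (AT4G04620) fell from 78, 148 and 92 to 22.1, 18.6 and 23.8 CPM in the mutant and was 23.6 and 21.2 CPM on average in wild type, whereas ATG8E (AT2G45170) fell in both, from 77.5, 82 and 65.3 to 26, 15.3 and 28.2 CPM in the mutant. AT3G18770, annotated as autophagy-related protein 13 and part of the initiating kinase complex, went from 17.1, 21.3 and 19.1 to 5.4, 5.04 and 5.57 CPM. ATG18A (AT3G62770) went from 48.5, 58.7 and 61.2 to 26.7, 28.2 and 25.6 CPM. ATG8F was not called, at a log2 change of -0.24 ± 0.17. In wild type, 12 of the 29 genes were lower and 1 higher. In a fit to the 6 mutant libraries alone, 14 of the 29 were called lower, and 14 when the title series difference was subtracted.

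Trehalose 6-phosphate is a sugar signal that inhibits SnRK1, and its genes moved in both directions. TPS1 (AT1G78580), the active synthase, rose from 23.1, 12.8 and 15.2 to 34.2, 39.2 and 29.7 CPM, and TPS5 (AT4G17770), a class II member, from 20.2, 8.25 and 12.2 to 52.9, 54.1 and 57.3 CPM. TPS9 (AT1G23870) and TPS11 (AT2G18700), class II members that SnRK1 is known to induce, fell from 115, 92 and 85.6 to 51.4, 32.8 and 31.9 CPM and from 93.2, 81.3 and 96.7 to 38.3, 21.7 and 27.9 CPM. TRE1 (AT4G24040), the trehalase that splits trehalose, dropped from 52.3, 96.5 and 72.2 to 11.3, 11.4 and 15.7 CPM. Of 18 tested genes, 7 were lower and 2 higher. Without 2 dark glucose libraries that lie with the other genotype, a choice made after seeing the data, 11 were lower, and after the title series subtraction 3.

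Sugar sensing and transport genes moved in both directions. HXK1 (AT4G29130), the hexokinase that is also a glucose sensor, rose from 52.4, 55.4 and 67.4 to 74.6, 103 and 95.1 CPM, and HXK2 (AT2G19860) from 16.4, 15.8 and 17.6 to 39.3, 37.6 and 38.8 CPM (log2 1.19 ± 0.17, adjusted p = 1.48e-06). RGS1 (AT3G26090), a membrane regulator of G-protein sugar signalling, went down in the mutant from 28, 35.9 and 32.3 to 14.4, 17.1 and 19.8 CPM and up in wild type from a mean of 9.43 to 18 CPM (interaction adjusted p = 2.59e-06). Among 19 tested hexose and sucrose importers, 5 were higher and 4 lower, near the shares over all genes, and 3 were higher without library 2 of either group. STP13 (AT5G26340, annotated MSS1), a hexose-proton symporter induced by stress, fell from 102, 155 and 116 to 31.6, 28.9 and 42.9 CPM in the mutant while the wild-type mean went from 4.85 to 17.9 CPM (interaction adjusted p = 2.21e-08). ERDL6 (AT1G75220), which exports glucose from the vacuole, fell from 63.6, 58.9 and 56.5 to 38.4, 40.9 and 36.5 CPM, and TMT2 (AT4G35300), which loads sugar into it, rose from 48.1, 28.8 and 31.8 to 63.1, 68.8 and 47.8 CPM. SUC1 and TMT1 did not pass, with log2 changes of -0.24 ± 0.21 and -0.25 ± 0.20. Of 10 tested SWEET genes, which encode passive sugar exporters, 5 were higher and 2 lower. SWEET12 (AT5G23660), an exporter of the phloem, rose from 15.5, 5.12 and 4.79 to 19.7, 16.8 and 22.6 CPM, while its wild-type mean was lower with glucose, at 36.5 against 64.4 CPM (interaction adjusted p = 0.000369). SWEET13, SWEET14 and SWEET15 (AT5G50800, AT4G25010 and AT5G13170) rose at low levels, with no library above 5.04 CPM. SWEET12 had a log2 change of 1.93 and SWEET13 of 8.35 without library 1 of the seedlings without glucose, and that of SWEET13 became 2.61 and 2.75 without libraries 2 and 3. After the title series subtraction ERDL6, TMT2, SWEET12, SWEET13 and SWEET14 no longer passed (adjusted p = 0.0876, 0.0518, 0.0562, 0.173 and 1). Their log2 changes were then -0.57, 0.71, 1.25, 4.25 and 4.31, against -0.65, 0.71, 1.26, 3.37 and 4.34 before it. That left 1 importer and 1 SWEET gene called higher and 2 importers and no SWEET gene called lower. The 2 lower SWEET calls became 1 without library 1 or 2 of the seedlings without glucose or library 3 with it, and 0 without library 2 with glucose.

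The route from glucose to starch rose almost as a whole. Of 16 genes of starch synthesis and of hexose phosphate import into plastids, 15 were higher and none lower, with a median log2 change of 1.06. The count of 15 became 10 after the title series subtraction and 12 with a replicate block in the fit to the 6 mutant libraries alone. GPT2 (AT1G61800), the sugar-induced glucose 6-phosphate translocator of the plastid, stood at 17.5, 18.8 and 19.3 CPM without glucose and 149, 367 and 257 CPM with it (log2 3.77 ± 0.41, adjusted p = 1.85e-08). The libraries without glucose were close to each other, and all 3 with glucose lay far above them. In wild type without glucose the mean was 0.19 CPM, and it reached 120.1 CPM with glucose, so the log2 change was larger there (interaction adjusted p = 1.67e-05). APL3 (AT4G39210) and APL4 (AT2G21590), large subunits of the ADP-glucose pyrophosphorylase of sink tissue, rose from 10.9, 8.25 and 10.3 to 104, 109 and 138 CPM and from 5.12, 3.31 and 3.75 to 23.6, 25.9 and 40.4 CPM. GBSS1 (AT1G32900), the starch synthase that makes amylose, went from 19.98, 17.6 and 32.8 to 212, 212 and 198 CPM; it too was named after its values were seen. The branching enzymes SBE2.1 (AT2G36390) and SBE2.2 (AT5G03650) rose from 33, 23.9 and 32.3 to 66.6, 76.3 and 66.5 CPM and from 42.3, 28.2 and 43.1 to 105, 124 and 106 CPM. GPT1, the housekeeping translocator, was the member not called, at 0.28 ± 0.14, and passed without library 1 with glucose (adjusted p = 0.0233).

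Starch breakdown genes rose alongside. Of 17 tested, 13 were higher and 1 lower, with a median log2 change of 1.29, and in wild type 11 were higher and 2 lower. SEX4 (AT3G52180), a phosphatase that frees starch chains, went from 11.7, 9.15 and 12.9 to 63.5, 67.8 and 95.5 CPM, and SEX1 (AT1G10760), the dikinase that opens the granule by phosphorylation, from 53.6, 25.9 and 39 to 118, 137 and 126 CPM. The debranching enzyme ISA3 (AT4G09020) rose from 16.7, 8.67 and 12 to 38.4, 46.6 and 45 CPM, and the maltose exporter MEX1 (AT5G17520, annotated RCP1) from 7.62, 6.08 and 9.41 to 17.9, 30.8 and 28.6 CPM. The gene called lower was BAM9, a beta-amylase family member. BAM3 (AT4G17090, annotated CT-BMY), the main plastid beta-amylase, varied within both groups, at 27.7, 30.9 and 57.8 CPM without and 38.4, 14.3 and 27.1 CPM with glucose, and did not pass.

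Of 16 genes of sucrose synthesis and cleavage, 4 were higher and 3 lower, near the shares over all genes. SPS4F (AT4G10120) and SPS1F (AT5G20280), sucrose phosphate synthases, went from 5.74, 2.59 and 3.92 to 40.9, 31 and 45 CPM and from 79.3, 64.3 and 82.5 to 159.6, 171 and 153 CPM. The cell wall invertase AT3G13790 fell from 196, 200.5 and 163 to 69.5, 43.8 and 62 CPM, and the cytosolic invertase CINV1 (AT1G35580) from 311, 317 and 249 to 145, 115 and 133 CPM, whereas CINV2 (AT4G09510) rose from 13.1, 9.09 and 15.9 to 30.5, 34.8 and 30.1 CPM. Of 27 genes of glycolysis and the oxidative pentose phosphate pathway, 7 were higher and 5 lower in the mutant, near the shares over all genes. In wild type 19 of them were higher and 3 lower. PPC1 (AT1G53310), a phosphoenolpyruvate carboxylase that refills the citric acid cycle, rose from 109, 74.6 and 97.2 to 231, 335 and 333 CPM. PFK3 (AT4G26270), a phosphofructokinase, fell from 125, 199 and 194 to 19.4, 11.8 and 19.9 CPM in the mutant but rose in wild type from a mean of 2.67 to 9.48 CPM (interaction adjusted p = 1.29e-05). The enolase AT2G36530, annotated LOS2, did not pass in the mutant (log2 -0.36 ± 0.19) and rose in wild type, from 529.6 to 1694 CPM (interaction adjusted p = 7.45e-06). The interaction passed for 17 of these 27 genes, 15 of them with the lower change in the mutant. After the title series subtraction 3 of the 27 were called lower in the mutant, and without library 1 of the seedlings without glucose AT2G36530 passed (log2 -0.56, adjusted p = 0.0172).

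Genes of phosphate starvation rose strongly. Plants short of phosphate replace phospholipids with galactolipids and sulfolipids and release phosphatases, and sugar is known to be needed for that response. Of 12 genes tested, 9 were higher and none lower, with a median log2 change of 2.90, and in wild type 10 were higher with a median of 2.16. MGD2 (AT5G20410), a galactolipid synthase, read 1.87, 1.93 and 1.48 CPM without glucose and 40.6, 41 and 40.2 CPM with it, a rise of 4.48 ± 0.37 (log2, adjusted p = 1.05e-10). Its libraries were nearly equal within each group, and the rise was larger than in wild type, whose means were 2.77 and 19.6 CPM (interaction log2 1.93, adjusted p = 0.00316). The title series subtraction left that value at 1.93 and its adjusted p at 0.051. MGD3 (AT2G11810, annotated MGDC), of the same family, went from 2.5, 0.722 and 0.261 to 34.6, 30.3 and 25.9 CPM. Without library 1 of the untreated seedlings its log2 change was 5.77. SQD1 (AT4G33030) and SQD2 (AT5G01220), which make sulfolipid, rose from 38.8, 24.4 and 46.1 to 279.7, 305 and 332 CPM and from 41.5, 16.2 and 25.1 to 203, 190.4 and 242 CPM. SPX1 (AT5G20150), a phosphate-sensing repressor that the response itself induces, went from 17.9, 7.28 and 14 to 185, 144 and 262 CPM, and the acid phosphatase PAP17 (AT3G17790) from 20.5, 15.5 and 27.7 to 92.7, 195 and 182 CPM. Outside the list, PS2 (AT1G73010) and PEPC1 (AT1G17710), phosphatases of the same response, rose from 3.62, 0.602 and 2.44 to 176, 110.2 and 197 CPM and from 2.00, 0.662 and 0.871 to 78.7, 34.1 and 45.7 CPM. The transporter PHT1;1 (AT5G43350) did not pass, at 41, 13.2 and 15.7 CPM without and 27.9, 27.1 and 20.9 CPM with glucose, its library 1 without glucose being the highest of all 6. Without that library it passed (log2 0.75, adjusted p = 0.0489).

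**Figure D2:**
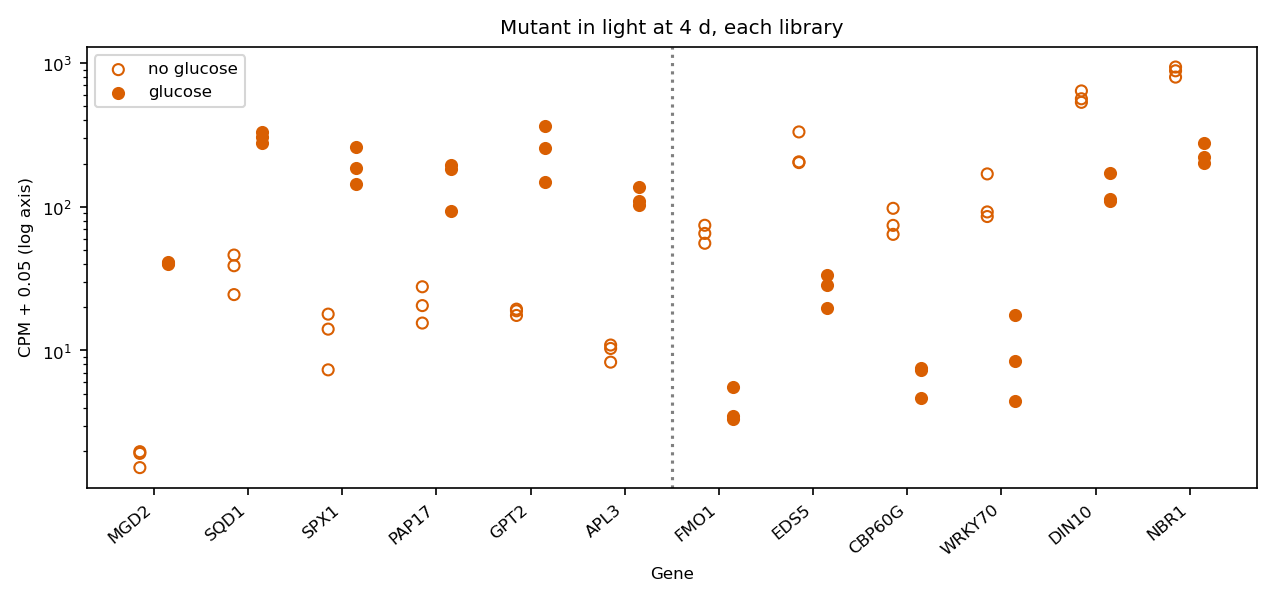
Level in CPM (log axis, 0.05 added) of 12 genes in each library of the mutant in light, 3 without glucose (open circles) and 3 with glucose (filled circles). The 6 genes on the left rose with glucose and the 6 on the right fell, and in all 12 the libraries of one side lie apart from those of the other. The 12 come from genes named by small adjusted p, which favours this, and 45.8% of all tested genes show it.

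Flavonoid and anthocyanin genes, which sugar induces in seedlings, rose in both genotypes. Of 28 genes, 20 were higher and 6 lower in the mutant (median log2 change 2.37), and 18 were higher and 4 lower in wild type (median 2.07). F3'H (AT5G07990, annotated TT7), a flavonoid hydroxylase, went from 7.74, 4.63 and 9.41 to 119, 147 and 85.3 CPM, a rise of 4.00 ± 0.34 (log2, adjusted p = 1.8e-10). The glycosyltransferases AT4G14090 and UGT79B1 (AT5G54060, annotated UF3GT), which decorate anthocyanins, rose from 13.1, 8.91 and 13.8 to 140.4, 87.9 and 79.8 CPM and from 3.12, 2.41 and 5.14 to 63.3, 54.2 and 39.3 CPM. 4CL3 (AT1G65060), a coumarate ligase, went from 10.4, 5.54 and 10.02 to 66.9, 99.1 and 85.2 CPM. DFR (AT5G42800), the reductase that commits the pathway to anthocyanin, and PAP1 (AT1G56650), a MYB activator of these genes, were named after their values were seen and rose from 18.2, 10.2 and 26.1 to 180.0, 179 and 186 CPM and from 2.25, 1.99 and 4.01 to 23.2, 24.7 and 27 CPM. The 6 genes called lower were regulators, and 4 of them (LBD37, LBD38, LBD39 and MYBL2) are known as repressors of the pathway. LBD39 (AT4G37540) fell from 117, 149 and 118 to 48.7, 43.7 and 54.4 CPM. The others were TTG1 and PAP2 (AT1G66390, annotated MYB90), a close relative of PAP1, named after its values were seen, which read 0.999, 3.73 and 2.53 CPM without glucose and 0.797, 1.3 and 0.612 CPM with it and just passed (adjusted p = 0.0439), its groups overlapping. The count of 6 became 3 without library 2 of the seedlings without glucose, without library 3 with glucose or in the fit to the 6 mutant libraries alone, and 2 after the title series subtraction. The call of PAP2 was lost without any of 4 libraries, for example at adjusted p = 0.274 and a log2 change of -1.01 without library 2 of the seedlings without glucose. It was also lost in the fit to the 6 mutant libraries alone (adjusted p = 0.0711) and after the title series subtraction (adjusted p = 0.218). C4H, an early enzyme shared with lignin synthesis, did not pass in the mutant, at 0.18 ± 0.14, and rose in wild type (log2 1.16, interaction adjusted p = 0.00023).

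The G-box, CACGTG, is read by bHLH and bZIP factors and occurs upstream of many light- and sugar-regulated genes. The 250 bases before the annotated gene start are shown for 3 members that hold it and moved in different directions. Sequences are RefSeq TAIR10.1, 5′ to 3′ on the gene's strand, with the G-box in capitals. DFR and UGT79B1 rose and PAP2, whose call was easily lost, was called lower, and each window holds the motif. Among the 28 flavonoid and anthocyanin genes, 6 had it, or 21.4%.
DFR, chr5:17166033-17166282, minus strand: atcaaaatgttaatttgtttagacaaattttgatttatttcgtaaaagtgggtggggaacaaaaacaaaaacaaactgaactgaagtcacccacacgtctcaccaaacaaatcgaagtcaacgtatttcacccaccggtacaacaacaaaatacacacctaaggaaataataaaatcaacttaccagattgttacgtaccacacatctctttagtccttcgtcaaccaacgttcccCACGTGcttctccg
UGT79B1, chr5:21938397-21938646, minus strand: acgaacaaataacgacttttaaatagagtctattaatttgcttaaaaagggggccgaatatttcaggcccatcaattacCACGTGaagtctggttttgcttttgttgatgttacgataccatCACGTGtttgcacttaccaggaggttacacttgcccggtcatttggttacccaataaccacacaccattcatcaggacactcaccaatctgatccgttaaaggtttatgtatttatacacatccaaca
PAP2, chr1:24763691-24763940, plus strand: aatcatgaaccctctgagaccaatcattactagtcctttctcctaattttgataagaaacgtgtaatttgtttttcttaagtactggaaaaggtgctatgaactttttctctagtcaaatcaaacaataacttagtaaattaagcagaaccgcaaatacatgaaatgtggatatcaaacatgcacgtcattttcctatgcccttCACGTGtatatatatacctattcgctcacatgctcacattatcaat
Over all 22346 windows of tested genes, 7.24% held a G-box, against 8.21% of genes called higher and 7.11% of genes called lower. The element TATCCA, known from sugar-starved rice, was found in 13.9%, 13.5% and 14.4%, the telo box AACCCTA in 5.52%, 4.79% and 5.48%, and the I-box core GATAA in 55.0%, 54.6% and 54.5%. The ACGT core, which every G-box also contains, stood at 44.6%, 45.2% and 45.6%, and the TATA box TATAAA at 46.4%, 45.3% and 47.6%. Both strands were searched, and a match describes letters in a window, not a bound site.

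Few photosynthesis genes were called in the mutant. Of 49 light-harvesting and photosystem genes, 8 were higher and none lower, beside 19.8% higher among all genes, and the median log2 change was 0.31. In wild type, 34 of the 49 were lower and none higher, with a median of -1.03, and the interaction passed for 29, all with the higher change in the mutant. LHCB1.3 (AT1G29930, annotated CAB1), a chlorophyll-binding antenna protein with near-identical copies, stood at 4491, 4552 and 6532 CPM without glucose and 6796, 6253 and 7309.6 CPM with it in the mutant, and the change did not pass. In wild type its mean went from 20429 to 8439.9 CPM (log2 -1.54, interaction adjusted p = 0.0293). Electron carriers and the ATP synthase were among the 8 that rose. ATPC1 (AT4G04640), the gamma subunit of the chloroplast ATP synthase, went from 188, 129 and 214 to 361, 338 and 317 CPM in the mutant and from a mean of 665 to 475 CPM in wild type (interaction adjusted p = 0.000395). FNR1 (AT5G66190) and FNR2 (AT1G20020), the ferredoxin-NADP oxidoreductases, rose from 139, 112 and 177 to 281, 208 and 283 CPM and from 62.8, 55.1 and 83.7 to 146, 121 and 173 CPM. Summed over the 49 genes, the mutant held 24499 to 36395 CPM without and 32464 to 35955 CPM with glucose, and wild type 110350.0 to 115590.0 and 49030.0 to 56583 CPM. The count of 8 became 3 to 5 without library 1 or 2 of the seedlings without glucose or any library with it, and 2 after the title series subtraction. FNR1 lost its call without library 2 of the seedlings without glucose (adjusted p = 0.08), and the interaction of LHCB1.3 without any of 5 libraries (adjusted p from 0.0524 to 0.0677). After the subtraction neither passed (adjusted p = 0.104 and 0.2).

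In carbon fixation and chlorophyll synthesis, the genes called in the mutant were all higher and those called in wild type all lower. Over all tested genes 19.8% were higher and 23.2% lower in the mutant, and 18.1% and 18.3% in wild type. Of 22 Calvin cycle genes, 6 were higher in the mutant, near that share, and none lower (median log2 change 0.68). In wild type 18 were lower and none higher (median -1.15), and the interaction passed for 21. SBPASE (AT3G55800), a control point of ribulose bisphosphate regeneration, rose from 106, 69.3 and 117 to 224, 253 and 239 CPM in the mutant, and its wild-type means were 485 and 359 CPM (interaction adjusted p = 0.00108). PGK1 (AT3G12780) rose from 262, 229 and 310.1 to 582, 565 and 589.6 CPM, and the plastid triosephosphate isomerase TIM (AT2G21170) from 192, 187 and 207 to 462, 366 and 412 CPM. RBCS1A (AT1G67090), a Rubisco small subunit with close copies, read 3208, 2975 and 4285 CPM without and 4937, 6426 and 5143 CPM with glucose and did not pass (adjusted p = 0.0811), although its groups did not overlap. Of 19 chlorophyll synthesis genes, 8 were higher and none lower in the mutant, and 10 were lower in wild type. PORC (AT1G03630), a light-dependent protochlorophyllide reductase, rose from 36.1, 15.2 and 27.6 to 86.1, 78.7 and 80.1 CPM, and the chlorophyll synthase AT3G51820, annotated G4, from 70.6, 49.2 and 97.3 to 148, 178 and 149.8 CPM. Among 18 regulators of light signalling and greening, 6 were higher and 2 lower in the mutant, beside 19.8% and 23.2% over all tested genes. PIF3 (AT1G09530), a factor that phytochrome removes in light, rose from 40.7, 47.7 and 51.8 to 80.2, 124 and 148 CPM, and GNC (AT5G56860), a GATA factor that promotes greening, from 12.4, 9.21 and 15.9 to 24.1, 28.2 and 22.5 CPM. Of 105 tested chloroplast-encoded genes, 3 were higher and 4 lower. The Calvin cycle count was 11 in the fit to the 6 mutant libraries alone and 3 without library 2 of the seedlings without glucose or after the title series subtraction. The chlorophyll count was 3 without that library, without library 1 with glucose or after the subtraction, and 4 without library 2 with glucose. Of the light regulators, 3 were higher and none lower after the subtraction, and the lower count was 4 without library 1 and 0 without library 2 of the seedlings without glucose, and 1 without library 2 with it.

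**Figure D3:**
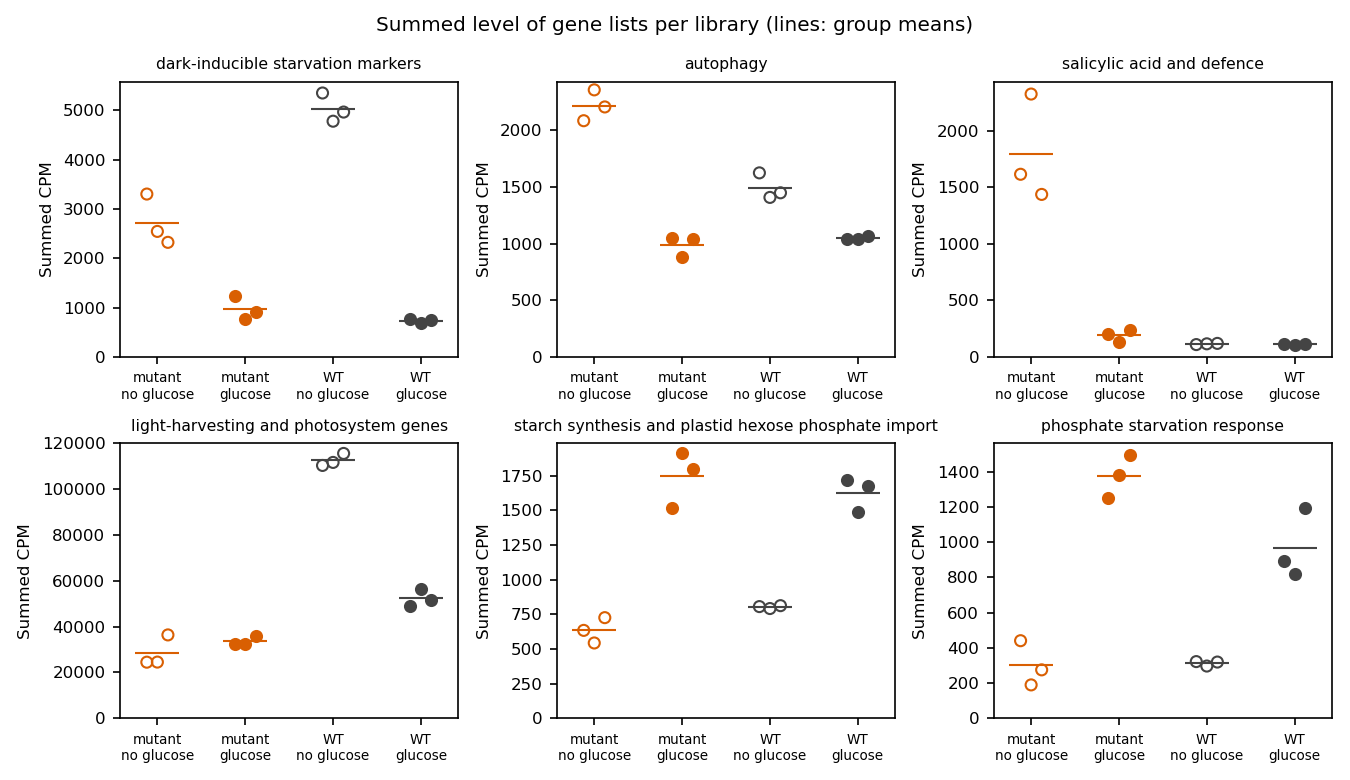
Summed level in CPM of 6 gene lists in each library at 4 d in light (each panel from 0), for the mutant and wild type without glucose (open circles) and with glucose (filled circles), 3 libraries a group. The CPM were not scaled by the normalization factors of the fit. In the photosystem panel the mutant libraries without glucose lie far below those of wild type without glucose, and in the salicylic acid and autophagy panels the mutant without glucose lies above the other 3 groups.

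Cell division genes rose. Of 30 genes of the cell cycle and DNA replication, 23 were higher and none lower, with a median log2 change of 1.503, against 10 higher and 2 lower in wild type, and the interaction passed for 14 with the higher change in the mutant and for 1 with the lower. CDKB1;1 (AT3G54180), a kinase of the G2 phase, stood at 3.87, 3.13 and 3.83 CPM without glucose and 13, 16.1 and 13.8 CPM with it, a rise of 1.96 ± 0.22 (log2, adjusted p = 1.52e-08). PCNA2 (AT2G29570), the sliding clamp of replication, went from 13.7, 9.81 and 10.5 to 39.4, 31.1 and 38.1 CPM, MCM7 (AT4G02060, annotated PRL), a subunit of the replicative helicase, from 11.9, 5.96 and 8.45 to 31.1, 30.6 and 27.9 CPM, and TSO2 (AT3G27060), a ribonucleotide reductase subunit, from 33.7, 20.1 and 27.6 to 95.3, 111 and 104 CPM. All libraries with glucose lay above those without for these 4 genes, which naming by small adjusted p favours. Groups did not overlap for 45.8% of all tested genes. RNR1 did not pass, at 0.20 ± 0.18. Of 11 genes of cell expansion and the cell wall, 6 were higher and 1 lower. EXPA11 (AT1G20190) and EXPA1 (AT1G69530), expansins, went from 41.5, 36.4 and 42.9 to 89.4, 134 and 172 CPM and from 83.3, 127 and 163 to 215, 412 and 319 CPM, and the gene called lower was XTH24 (AT4G30270), from 229, 179 and 128 to 106, 58.7 and 63 CPM. After the title series subtraction 3 of the 11 were higher, and XTH24 did not pass (adjusted p = 0.0574).

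Markers of growing tissue moved with these genes. Of 9 root markers, 6 were higher and none lower, and of 13 markers of the shoot apex, epidermis and stomata, 7 were higher and none lower; of 6 vascular markers, 1 was higher and 1 lower. The root markers summed to 83.8 to 107 CPM without glucose and 127 to 138 CPM with it, the shoot markers to 256 to 422 and 531 to 887 CPM, and the vascular markers to 160 to 239 and 188 to 213 CPM, with no marker at 0 counts in any library of these lists. WOX5 (AT3G11260), the gene of the root quiescent centre, read 1.25, 0.542 and 0.697 CPM without and 3.01, 3.48 and 9.3 CPM with glucose, and ATML1 (AT4G21750), a determinant of the epidermis, 58.3, 41.8 and 62.6 and 84, 96.8 and 74.3 CPM. WOX5 had a log2 change of 2.01 without library 3 with glucose. The count of root markers was 2 without library 2 and 3 without library 3 of the seedlings without glucose, 3 without library 2 with glucose, and 0 after the title series subtraction. Without library 2 with glucose, or after the subtraction, 4 shoot markers were higher, and WOX5 did not pass after the latter (adjusted p = 0.0933). SCR, a root endodermis gene, did not pass, at 0.16 ± 0.14. In whole seedlings, a change in the share of cells of a type and a change in RNA per cell cannot be told apart, and the part of tissue makeup in the results above was not tested.

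Genes that build ribosomes fell in the mutant. Of 15 ribosome biogenesis genes, 9 were lower and none higher, with a median log2 change of -0.64, while in wild type 3 were higher and 1 lower, and the interaction passed for 13, all with the lower change in the mutant. FIB1 (AT5G52470), the fibrillarin that methylates ribosomal RNA, went from 438, 713 and 507 to 299.6, 259.8 and 242 CPM in the mutant (interaction log2 -0.97, adjusted p = 0.0154). Its wild-type means were 209 and 231 CPM before the normalization factors of the fit, so no rise is read from them. The pescadillo-like AT5G14520 fell from 156, 207 and 149 to 113, 97.3 and 88.4 CPM and PUM24 (AT3G16810), a pre-rRNA processing factor, from 55.7, 92.4 and 66.2 to 41.4, 38.9 and 43.2 CPM. Without glucose all 3 genes stood higher in the mutant than in wild type, whose means were 209, 66.8 and 23 CPM. Of 25 cytosolic ribosomal protein genes, 5 were lower and 1 higher, below the shares over all genes. The largest of these falls was of RPL10C (AT1G66580, annotated SAG24), from 742, 1432 and 1353 to 529, 392 and 456 CPM, whereas its wild-type mean rose from 228 to 575 CPM (interaction adjusted p = 5.13e-07). Without library 2 of the seedlings without glucose, 4 biogenesis genes were lower, PUM24 lost its call (adjusted p = 0.0666), FIB1 its interaction (adjusted p = 0.093), and 1 ribosomal protein gene was lower. The ribosomal protein count was 2 without library 1 or 3 with glucose. In the fit to the 6 mutant libraries alone and after the title series subtraction, 5 biogenesis genes and 1 ribosomal protein gene were lower, and after the latter the interaction of FIB1 did not pass (adjusted p = 0.128).

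Defence genes were high in the mutant without glucose and fell with it. Of 13 genes of salicylic acid synthesis and response, 12 were lower and none higher, with a median log2 change of -3.18, against 3 lower and 1 higher in wild type. FMO1 (AT1G19250), which makes the mobile immune signal N-hydroxypipecolic acid, stood at 74.3, 65.2 and 55.7 CPM without glucose and 3.28, 3.48 and 5.5 CPM with it, a fall of 4.00 ± 0.42 (log2, adjusted p = 9e-09). EDS5 (AT4G39030), the transporter that moves a salicylic acid precursor out of the chloroplast, fell from 205, 332 and 203 to 28.5, 19.7 and 33.6 CPM, and CBP60G (AT5G26920) and SARD1 (AT1G73805), the factors that drive that synthesis, from 74.2, 97.5 and 64.2 to 7.53, 4.61 and 7.22 CPM and from 19.4, 25.1 and 21.4 to 1.68, 1.91 and 3.67 CPM. WRKY70 (AT3G56400), a factor downstream of salicylic acid, went from 92, 169 and 85.5 to 8.41, 4.43 and 17.5 CPM. Its log2 change was -3.55 ± 0.38, and -4.20 without library 3 with glucose. The lowest library without glucose lay above the highest with glucose in all 5. Naming by small adjusted p, or after seeing values, favours such genes, and 45.8% of all tested genes had groups that did not overlap. In wild type, the means without and with glucose were 0.702 and 0.551 CPM for FMO1, 9.51 and 14.6 CPM for EDS5, and 8.53 and 3.32 CPM for WRKY70, and the interaction passed for 11 of the 13 genes, each with the lower change in the mutant. NPR1 (AT1G64280), a salicylic acid receptor, fell from 65.6, 70.9 and 66.9 to 28.9, 26.8 and 26 CPM. PR5 (AT1G75040) did not pass, at 0.999, 1.14 and 1.39 CPM without and 0.354, 0.609 and 0.795 CPM with glucose. SARD1 was named after its values were seen.

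WRKY factors bind the W-box, whose core TTGAC is common. The 250 bases before the gene start are shown for 3 of these genes that fell and hold the core. The core on either strand is in capitals.
SARD1, chr1:27749249-27749498, minus strand: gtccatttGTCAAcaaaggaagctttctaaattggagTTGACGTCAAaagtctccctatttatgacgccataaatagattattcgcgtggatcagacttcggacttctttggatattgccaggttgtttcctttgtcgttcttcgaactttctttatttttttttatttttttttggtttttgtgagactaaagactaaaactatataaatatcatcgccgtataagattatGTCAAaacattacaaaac
EDS5, chr4:18185187-18185436, plus strand: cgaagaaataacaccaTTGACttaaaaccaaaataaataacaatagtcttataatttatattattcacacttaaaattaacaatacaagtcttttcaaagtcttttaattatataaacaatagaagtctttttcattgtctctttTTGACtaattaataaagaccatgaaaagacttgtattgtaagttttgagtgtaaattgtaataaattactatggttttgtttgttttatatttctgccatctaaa
WRKY70, chr3:20910624-20910873, minus strand: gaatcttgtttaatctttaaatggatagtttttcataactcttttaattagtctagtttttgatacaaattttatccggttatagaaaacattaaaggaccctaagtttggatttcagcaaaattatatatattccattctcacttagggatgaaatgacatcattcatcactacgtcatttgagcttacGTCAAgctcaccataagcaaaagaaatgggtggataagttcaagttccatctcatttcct
The core occurred 4 times in the SARD1 window, 2 times in that of EDS5 and 1 time in that of WRKY70. It was present in 45.3% of all windows, in 51.2% of genes called lower and in 41.3% of genes called higher. Among the 13 defence genes, 6 had it, or 46.2%, close to the share over all genes. This motif was searched after the values were seen. So was the phosphate response element GNATATNC, present in 5.44% of all windows, 5.98% of those of genes called higher, 5.81% of those called lower and 2 of the 12 phosphate genes.

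Protein folding genes of the endoplasmic reticulum fell in the mutant and mostly rose in wild type. Of 20 genes, 13 were lower and none higher in the mutant (median log2 change -0.78), whereas 11 were higher and 2 lower in wild type, and the interaction passed for 17. BIP3 (AT1G09080), a chaperone made under folding stress, stood at 104, 224 and 139 CPM without glucose and 3.9, 2.00 and 7.83 CPM with it. Its log2 change was -5.10 ± 0.87, and -5.76 without library 3 with glucose. The wild-type means of BIP3 were 0.392 and 0.656 CPM. BZIP60 (AT1G42990), the factor that the stress sensor IRE1 activates by splicing, fell from 145, 205 and 165 to 60.7, 40.2 and 73 CPM, and IRE1A (AT2G17520) itself from 52.7, 48.3 and 53.9 to 25.8, 28.3 and 26.7 CPM. AT3G08970, the J-domain cochaperone ERDJ3A, went from 26.8, 51.2 and 74.5 to 3.98, 4.43 and 5.81 CPM in the mutant, and the wild-type mean from 1.49 to 5.16 CPM (interaction adjusted p = 5.81e-06). SHD (AT4G24190), the HSP90 of this compartment, did not pass in the mutant (log2 -0.34 ± 0.20) and rose in wild type (log2 0.67, interaction adjusted p = 0.00762). After the title series subtraction the interaction of SHD was -0.94 (adjusted p = 0.112).

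Of 10 hypoxia and fermentation genes, 4 were lower and none higher, and in wild type 2 were higher and none lower. HB1 (AT2G16060), a haemoglobin that scavenges nitric oxide, fell from 582, 944 and 646 to 173, 164 and 182 CPM while its wild-type mean rose from 39.2 to 158 CPM (interaction adjusted p = 1.55e-05). HRE2 (AT2G47520, annotated ERF71), a hypoxia-responsive factor, went from 66.8, 99.5 and 63.3 to 9.65, 8.78 and 9.66 CPM, and PDC2, a pyruvate decarboxylase, did not pass (log2 -0.58 ± 0.34). Of 14 genes of senescence and chlorophyll breakdown, 9 were lower and 3 higher. WRKY6 (AT1G62300), a senescence-associated factor, dropped from 189, 232 and 213 to 20.3, 22.1 and 25.5 CPM, a fall of 3.26 ± 0.24 (log2, adjusted p = 1.94e-11), and rose in wild type from a mean of 15.3 to 32.1 CPM. ORE1 (AT5G39610, annotated NAC6), a driver of leaf ageing, fell from 21, 39.9 and 27.5 to 6.2, 6.09 and 8.93 CPM, and PPH (AT5G13800), which removes the phytol tail of chlorophyll, from 82.8, 127 and 129.9 to 37.9, 35.9 and 43.2 CPM.

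Of 23 genes of abscisic acid synthesis, signalling and targets, 5 were higher and 4 lower in the mutant, near the shares over all genes, and 13 were higher and none lower in wild type. RD29A (AT5G52310, annotated LTI78) and RD29B (AT5G52300, annotated LTI65), classical targets of abscisic acid and drying, went from 33, 5.42 and 9.67 to 274, 127 and 330.3 CPM and from 6.99, 2.65 and 3.14 to 66.3, 32.7 and 89.3 CPM. Without library 1 of the untreated seedlings the log2 change of RD29A was 4.97 in place of 3.96. RD22 (AT5G25610) rose from 50.7, 64.8 and 66.7 to 233, 217 and 365 CPM, less on the log2 scale than in wild type (interaction adjusted p = 0.000111). NCED9 (AT1G78390), a synthesis enzyme best known from seeds, fell from 6.49, 10.9 and 10.1 to 0.443, 0.348 and 0.55 CPM, and AAO3 (AT2G27150), the last enzyme of the pathway, from 45.5, 41.9 and 59.6 to 23.1, 19.996 and 28.6 CPM. Without library 3 with glucose 3 were higher and 4 lower, and 3 were higher after the title series subtraction or in the fit to the 6 mutant libraries alone.

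Of 24 genes of nitrate and ammonium assimilation, 6 were lower and 3 higher in the mutant, beside 23.2% lower and 19.8% higher among all genes. In wild type 10 of the 24 were higher and 3 lower. NIA1 (AT1G77760), a nitrate reductase, fell from 715, 928 and 884 to 305, 200.1 and 185 CPM in the mutant (interaction adjusted p = 0.000158). Its wild-type means were 653 and 750.1 CPM before the normalization factors of the fit, so no rise is read from them. NRT3.1 (AT5G50200, annotated WR3), the partner of high-affinity nitrate transporters, went from 93, 193 and 118 to 37.4, 45.8 and 44.4 CPM in the mutant and rose in wild type (log2 0.93, interaction adjusted p = 1.89e-07). AMT1;1 (AT4G13510), an ammonium transporter, fell from 102, 108 and 105 to 36.3, 37.8 and 29.2 CPM. The cytosolic glutamine synthetase GLN1;3 (AT3G17820) rose from 93, 112 and 94.8 to 142, 179 and 196 CPM. The nitrite reductase NIR1 did not pass in the mutant, at -0.57 ± 0.33, and rose in wild type from a mean of 206 to 1798 CPM (interaction adjusted p = 2.9e-06).

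Lipid mobilisation genes were split, with 7 of 18 higher and 3 lower. MFP2 (AT3G06860) and the thiolase KAT2 (AT2G33150, annotated PKT3), enzymes of peroxisomal beta-oxidation, rose from 169, 140.0 and 181 to 319, 570.1 and 222 CPM and from 289, 242 and 313 to 425, 728 and 376 CPM. The acyl-CoA oxidases ACX1 (AT4G16760) and ACX2 (AT5G65110), which start each round, fell from 285, 429.6 and 413 to 195, 222 and 199 CPM and from 197, 208 and 221 to 114, 138 and 114 CPM. ICL (AT3G21720), the isocitrate lyase of the glyoxylate cycle, ranged from 1145 to 4721 CPM among the libraries with glucose and did not pass. Of 12 tested seed storage, oleosin and LEA genes, 2 were lower and none higher, beside 23.2% lower and 19.8% higher among all genes. EM1 (AT3G51810) went from 4.25, 3.85 and 2.27 to 0.974, 0.435 and 0.489 CPM. EM1 lost its call without library 2 of the untreated seedlings (adjusted p = 0.0655) and without library 2 or 3 with glucose (adjusted p = 0.0716 and 0.0778). The count of 2 was 0 without library 2 with glucose or after the title series subtraction and 1 without library 2 or 3 of the untreated seedlings or library 1 or 3 with glucose. Without library 2 with glucose, 2 lipid genes were higher and 4 lower and KAT2 did not pass (adjusted p = 0.0718), and without library 2 of the untreated seedlings or after the subtraction 3 were higher.

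The change in the mutant was then tested against that in wild type. The interaction passed for 6740 of 22586 genes (29.8%), with the higher change in the mutant for 3126 and the lower for 3614. Of all tested genes, 953 (4.22%) were called in both genotypes in opposite directions with the interaction passing, 589 of them lower in the mutant and higher in wild type (2.61%) and 364 the reverse (1.61%). Another 3174 genes (14.1%) were called in the same direction in both. Without glucose, 12187 genes differed between the mutant and wild type in light (54.0%), 6502 of them higher in the mutant (28.8%) and 5685 lower (25.2%). With glucose 2137 did (9.46%), 970 higher (4.29%) and 1167 lower (5.17%). These counts share libraries with the change with glucose and are given for their levels only. WRKY6, above, is 1 of the 6 genes with the smallest interaction p among those whose mean log2 CPM reached 2. AT1G42430, annotated as an inactive purple acid phosphatase-like protein, had a mean of 209 CPM in wild type without glucose and 22 CPM with it, and read 16.1, 17.2 and 16.8 and 24.4, 22.6 and 21.4 CPM in the mutant, where the change did not pass (interaction log2 3.94 ± 0.25, adjusted p = 8.88e-13). CYP72A8 (AT3G14620), a cytochrome P450, fell from 27.7, 64.1 and 42.2 to 8.41, 3.22 and 9.79 CPM in the mutant and rose from a mean of 2.42 to 19.3 CPM in wild type. The same crossing was seen for the sugar kinase family gene AT5G51830, from 182, 367 and 239 to 57, 55.2 and 65.7 CPM in the mutant against 14.5 to 64.4 CPM in wild type, and for the glycosyltransferase UGT87A2 (AT2G30140), from 96.3, 168 and 110.0 to 34.4, 28.3 and 39.1 CPM against 13 to 45.3 CPM. NDB2 (AT4G05020), an alternative NADH dehydrogenase of mitochondria, rose in wild type from 7.93 to 62.5 CPM and fell in the mutant from 82.9, 134 and 91.1 to 73.1, 52.3 and 87.5 CPM, where the groups overlapped. Its call in the mutant was lost without library 2 of either group (adjusted p = 0.269 without glucose and 0.132 with it), in the fit to the 6 mutant libraries alone (adjusted p = 0.128) and after the title series subtraction (adjusted p = 0.0901).

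**Figure D4:**
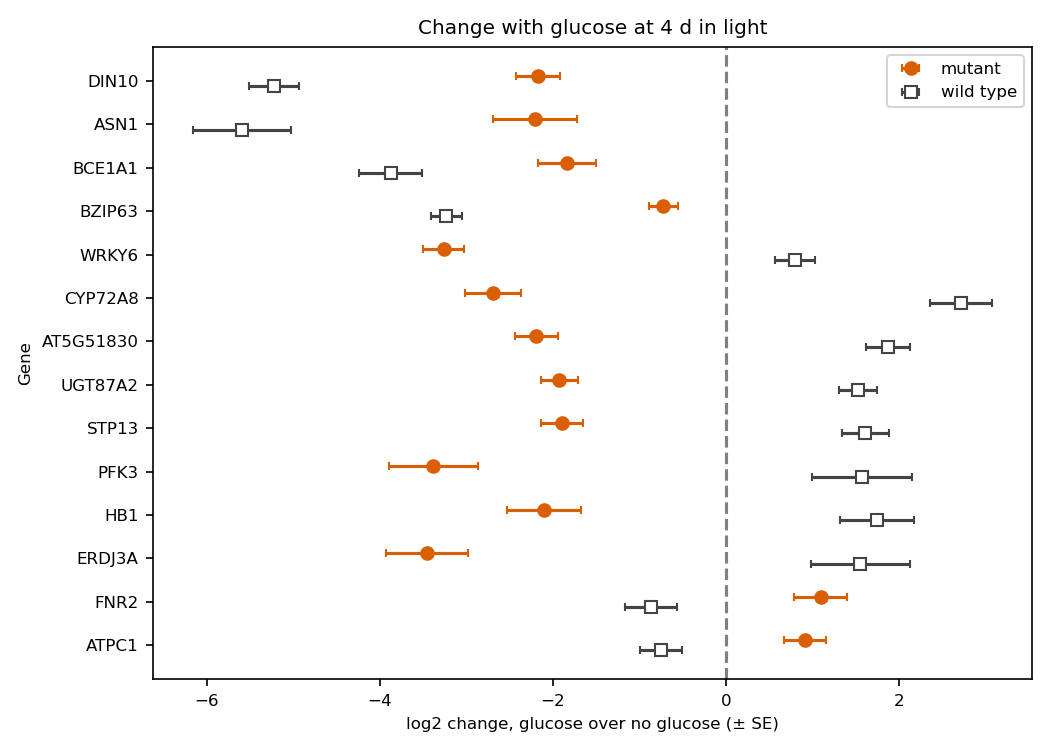
Log2 change with glucose ± standard error in light at 4 d, in the mutant (filled circles) and in wild type (open squares), for 14 genes named in the text; the dashed line is 0. The starvation genes at the top fell in both genotypes and the genes in the lower part moved apart, WRKY6 falling in the mutant by 3.26 and rising in wild type.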

How the data were processed

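Whole-seedling mRNA was sequenced, and the authors deposited raw counts per transcript model, made with featureCounts 1.6.2, per the file headers, which also show STAR in the names of the alignments and a TAIR10 annotation. Models were allowed to overlap and no strand option is shown there. The length in bases of each model, used to choose 1 model per gene, is also deposited by the authors. STAR, featureCounts and DESeq2 are named in the submitters' processing notes. Of 32678 genes, 5883 had several models, and the longest was kept, which left out counts of the other models. Runs of the 3 d dark libraries, deposited in both title series, differed by little more than sampling noise where they had the same number (chi-square over degrees of freedom 1.04 to 1.06, against 7.75 to 45 otherwise) and were summed, giving 42 libraries in 14 groups. One column of counts with no sample here (1 in all) was not used.

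All 42 libraries were fitted with edgeR 4.0.16 in R 4.3.3 (filterByExpr by group, TMM, robust quasi-likelihood test with Benjamini-Hochberg adjustment over 22586 genes, 28 residual degrees of freedom, biological coefficient of variation 21.1%). Adjusted p-values in the text come from this fit unless another setting is named. Total counts per library of the comparison ranged from 8008188 to 16614513, and values of a few counts carry counting error. The fit was tested on simulated data. Alternatives were other scalings, filters, transcript rows, a replicate block, DESeq2 1.42.0, each library left out, and subtraction of the difference between title series. Named genes are KIN10, KIN11, the 12 genes that rose most and the 12 that fell most (called, mean log2 CPM at least 2, groups not overlapping), examples from up to 5 called members of each list by adjusted p and 2 not called by level, and 6 genes by interaction p. The mean log2 CPM was taken over all 42 libraries. The gene lists, the comparison and the named genes were chosen with earlier results of these data known. Symbols come from RefSeq, which held 31912 of the genes, and from the gene lists. Of 120132 introns of the counted models, 99% read GT to AG in the RefSeq TAIR10.1 sequence, so the coordinates fit that sequence.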

Additional observations from a re-analysis of the deposited data

Results flagged for a closer look

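The change with glucose in light differed between the mutant and wild type for 6740 genes by the interaction test (edgeR, adjusted p under 0.05). The 6 genes with the smallest p and a mean log2 CPM of at least 2 had interaction log2 values, mutant minus wild type, of -4.06 for WRKY6 (AT1G62300), 3.94 for AT1G42430, -5.41 for CYP72A8 (AT3G14620), -4.07 for AT5G51830, -3.29 for NDB2 (AT4G05020) and -3.46 for UGT87A2 (AT2G30140). In 5 of the 6, wild type rose and the mutant fell. Groups of 3 libraries are too small for a test of single outlying libraries.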

How the results depend on the processing

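The count of 9709 genes called with glucose in the mutant stayed within 1.5 times of itself under all alternatives but 3. It was 5196 with a replicate block in a fit to the 6 mutant libraries alone (6583 without the block), 5606 after subtracting the difference between title series at 3 d in the dark, and 4353 when only genes changed at least 2-fold were counted. Leaving out 1 library gave 7285 to 9842 genes. The 6740 interaction genes became 2713 after the title series subtraction and 4967 to 7215 without 1 library. Of the 603 tested list genes, 329 were called, 208 after that subtraction and 263 to 328 without 1 library. For the last of these settings and the subtraction the cause was not tested. No pairing by replicate number was seen: deviations of same-numbered mutant libraries correlated at 0.175, -0.253 and -0.200, and different numbers reached 0.390. In wild type same numbers gave 0.061, -0.090 and -0.264, and different numbers reached 0.242. Groups of 3 libraries are too small to tell whether the numbers pair the samples. The replicate block over all libraries left 9617 and 6614 genes called. Among the 167 genes of the text, 142 kept their direction and side of the threshold under every alternative run. Direction reversed only for 6 genes that had not passed: KIN10, DRM2, TMT1 and PDC2 without library 1 of the seedlings without glucose, PHT1;1 without library 2 or 3 of that group (-0.07 without library 3), and ICL without library 2 with glucose. Over all single libraries left out, these log2 changes ranged from -1.25 to 0.09 for KIN10, -1.48 to 0.31 for DRM2, -0.43 to 0.10 for TMT1, -0.85 to 0.04 for PDC2, -0.14 to 0.75 for PHT1;1 and -0.23 to 0.85 for ICL. Leaving out the 2 dark glucose libraries that lie with the other genotype, chosen after seeing the data, gave 9834 and 6978 genes. Depth limits values of a few counts, such as those of SUC7 or BAM5.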
